A study of Mus musculus with 48 samples.

Results

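The regions described here are stretches of the mouse genome in which a peak of N6-methyladenosine (m6A) immunoprecipitation was listed mostly in hippocampi of huntingtin knock-in mice. The peaks of 24 lists, 1 for each animal, were joined wherever they shared at least 1 bp, which gave 81807 common regions. A region was kept when the number of KI animals with a peak, of 12, exceeded the number of WT animals with a peak, of 12, by 6 or more. 423 regions met this rule and are called members below. They were chosen by their calls in the 2 genotypes, so that the difference between KI and WT in any member is a description, and no test of genotype is given for it.

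The KI animals were heterozygous HdhQ7/Q111 mice, which carry an expanded CAG stretch engineered into the first exon of 1 huntingtin allele, and the WT animals were HdhQ7/7 mice. All 24 animals had a C57BL/6 background. In each genotype 6 animals had been trained in an arena with 2 objects and spatial cues and were killed 30 min later, and 6 were naive. Both treatments were taken at 8 and at 5 months of age, with 3 animals for each of the 8 conditions. Each animal gave an immunoprecipitated and an input library of hippocampal RNA, 48 libraries in all, and each peak list set the first against the second.

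m6A is a methyl mark on adenosines within messenger RNA. It is written on transcripts as they are made, by a complex built around METTL3 and METTL14, mostly at adenosines of the GGAC type, and it gathers near stop codons and in long internal exons. Antibodies against m6A also bind the related mark m6Am, which stands next to the cap at the very start of a transcript, so that peaks at transcript starts can hold either mark. In neurons, readers such as the YTHDF proteins carry the mark into control of translation, transport and decay. A peak call depends on the level of the mark, on the amount of the transcript and on the depth of both libraries, and the lists hold none of these apart.

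The sequences below belong to the members that carry the account that follows. The first 7 windows are those of the members with the greatest excess of KI animals, outside untranslated regions, and the next 4 belong to members kept under all 4 planned ways of reading the peaks, as given further on. Each window holds 100 bases on the summit of the strongest peak, from 5′ to 3′ on the strand of the gene (the plus strand outside genes), in the mm9 build, with any GGAC in capitals. The class named for a window, such as intron, is that of the summit base alone. Other bases of the window, a GGAC among them, may lie in another class.
Htt, first intron, chr5:35105004-35105103, plus strand: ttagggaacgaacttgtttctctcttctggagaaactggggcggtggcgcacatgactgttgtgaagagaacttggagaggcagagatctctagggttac
Hmgxb4, intron, chr8:77544088-77544187, plus strand: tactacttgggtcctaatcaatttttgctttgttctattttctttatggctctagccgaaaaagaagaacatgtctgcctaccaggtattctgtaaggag
Pcsk2, intron, chr2:143549695-143549794, plus strand: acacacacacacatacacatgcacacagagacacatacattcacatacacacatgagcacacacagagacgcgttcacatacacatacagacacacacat
Zfpm2, intron, chr15:40512880-40512979, plus strand: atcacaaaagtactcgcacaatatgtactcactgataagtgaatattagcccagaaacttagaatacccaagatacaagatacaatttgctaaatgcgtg
Nrcam, intron, chr12:45589545-45589644, plus strand: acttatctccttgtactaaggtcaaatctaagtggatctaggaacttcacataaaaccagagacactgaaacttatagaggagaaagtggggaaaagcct
Upstream of Htt, chr5:35104056-35104155, plus strand: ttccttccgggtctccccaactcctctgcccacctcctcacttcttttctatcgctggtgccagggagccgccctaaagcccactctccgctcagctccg
Region nearest to Zim1, chr7:6605035-6605134, plus strand: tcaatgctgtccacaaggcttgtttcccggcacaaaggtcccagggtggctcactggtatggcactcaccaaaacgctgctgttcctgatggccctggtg
Clvs1, intron, chr4:9277734-9277833, plus strand: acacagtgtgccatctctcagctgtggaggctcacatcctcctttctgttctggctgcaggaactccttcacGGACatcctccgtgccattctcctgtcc
Fbf1, intron, chr11:116007290-116007389, minus strand: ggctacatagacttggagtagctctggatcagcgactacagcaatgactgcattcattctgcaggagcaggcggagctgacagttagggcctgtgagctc
Mkln1, coding sequence, chr6:31457621-31457720, plus strand: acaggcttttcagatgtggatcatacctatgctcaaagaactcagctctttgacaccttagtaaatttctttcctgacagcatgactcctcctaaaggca
Drap1, noncoding exon, chr19:5423655-5423754, minus strand: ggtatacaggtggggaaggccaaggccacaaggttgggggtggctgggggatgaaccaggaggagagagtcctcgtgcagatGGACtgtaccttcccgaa

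None of the first 7 windows holds a GGAC, and the window of Pcsk2 is a run of short repeats of a and c. Of the other 4, those of Clvs1 and Drap1 hold 1 GGAC each. For members in untranslated regions only the GGAC nearest the summit is shown, with the bases around it. The Rragd member in an untranslated region had no GGAC in its 100 bases, so no site is shown for it. No sequence is given for the member in Wdr33. The sites below therefore do not show how often such members hold a GGAC.
Prdm8, 5′UTR, chr5:98609983-98610006, plus strand: ttctctctttGGACagaacccaca
Arf3, 5′UTR, chr15:98593516-98593539, minus strand: gcgggccagcGGACcatcttcacc
Klk8, 5′UTR, chr7:51053147-51053170, plus strand: ctcttccccaGGACgttggagtca
Ankrd43, 3′UTR, chr11:53290872-53290895, minus strand: acacacacacGGACaaagacagac
Rab3d, 3′UTR, chr9:21714841-21714864, minus strand: tgagctatggGGACtgtctctcag

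Members had peaks in a median of 9 KI animals and 3 WT animals. They made up 0.517% of all common regions and 2.27% of the 18674 regions called in 6 to 18 animals, the only ones that could meet the rule. In the opposite direction, 13 regions had an excess of 6 or more WT animals, 0.0696% of those 18674, with introns of the adhesion gene Cntn4 and the endocytic scaffold gene Itsn2 each called in 1 KI animal and 8 WT animals. Of the 423 members, 302 exceeded by exactly 6 animals, 92 by 7, 20 by 8 and 9 by 9 or more. Just outside the rule stood 981 regions with an excess of 5, called in a median of 8 KI and 3 WT animals, against a median of 9 KI and 3 WT animals for the members with an excess of 6. No WT animal had a peak in 44 members, and all 12 KI animals had one in 41.

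**Figure D1:**
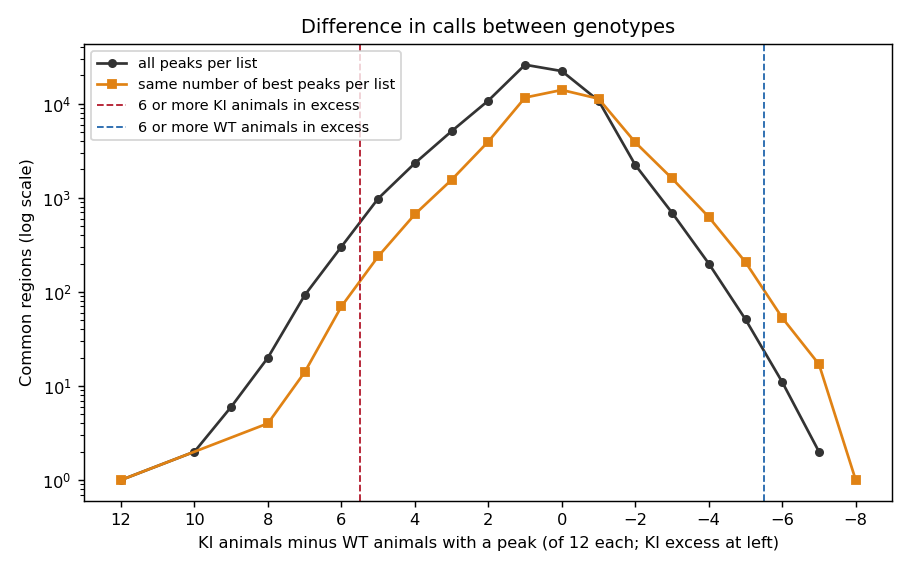
Number of common regions (log scale) at each difference between the number of KI and WT animals with a peak, KI excess at the left, with all peaks and with the best 22601 peaks of every list. With all peaks 423 regions lie past the dashed line for KI and 13 past that for WT, and with lists of equal length the counts are 89 and 71 (differences with no region are not drawn).

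The number of members changed when the peak lists were cut to equal length, a step that also dropped the weakest peaks and joined the regions anew. KI lists held between 30550 and 57293 peaks (median 37268) and WT lists between 22601 and 43557 (median 32712). When only the 22601 peaks with the highest −log10 q were used from each list, 89 regions had an excess of 6 or more KI animals and 71 an excess of 6 or more WT animals. 35 of the 423 members (8.27%) shared a base with one of those 89 regions, and these 35 were 39.3% of the 89. Asking instead that a peak cover at least 50% of its common region left 133 regions, of which 44 (33.1%) were members. With a −log10 q of at least 3 the count was 364 and with windows on the summits 512, and 236 and 396 members were kept in these 2 settings. Without the 5 lists (3 KI and 2 WT) whose shortest peak was under 100 bp, a setting added after the data were seen, 82 regions met the rule against 5 for WT, and 75 of them were members. The excess asked for stayed at 6 there, although fewer KI and WT animals were counted. 6 members were kept under all 4 of the equal lists, the 50% coverage, the higher −log10 q and the summit windows, namely those in Htt, Ankrd43, Clvs1, Fbf1, Mkln1 and Drap1, which are named here because of this outcome. Without any 1 KI animal, and with the rule as it was, fewer regions met it, down to 143. Htt codes for huntingtin, Clvs1 for clavesin 1, a lipid-binding protein of clathrin-coated vesicles in neurons, Fbf1 for a protein of the base of the cilium, Mkln1 for muskelin, a subunit of the CTLH ubiquitin ligase, and Drap1 for a corepressor of transcription by RNA polymerase II.

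Each KI animal had a peak in 276 to 392 of the 423 members, with a median of 323.5, and each WT animal in 35 to 184, with a median of 80. The 2 ranges did not overlap, as the choice of members would have it. Within the genotypes, however, the number moved with the length of the list. Such a relation is largely fixed in advance, since members are counted from the same lists and were chosen by these calls. The correlations below are thus a description. As a share of the regions called, members made up 0.779% to 1.02% in KI animals and 0.173% to 0.494% in WT animals. The KI animals with the most members, 392 and 375, had the longest lists of all, 57293 and 51735 peaks, and came from naive mice of 8 months. The WT animals at the ends, 184 and 35 members, had lists of 43557 and 22601 peaks, the longest and the shortest among WT mice. Across the 12 KI animals the number of members and the number of peaks correlated with a Pearson r of 0.902 (permutation p = 4e-05, adjusted p = 8e-05) and a Spearman rho of 0.818 (permutation p = 0.0019). Across the 12 WT animals r was 0.916 (permutation p = 1e-05, the smallest that 100000 permutations can give, adjusted p = 4e-05) and rho was 0.93 (permutation p = 5e-05). Without the 2 animals farthest from the median list length, r was 0.8 in KI (permutation p = 0.0105) and 0.874 in WT (permutation p = 0.00019). The shortest peak of a list, which ranged from 48 to 274 bp in KI and from 75 to 254 bp in WT, was also related to the number of members in KI (r = -0.642, permutation p = 0.0255, adjusted p = 0.0339, rho = -0.608, permutation p = 0.0387). Without the 2 animals farthest from the median r was -0.461 (permutation p = 0.178). In WT, r was -0.494 (permutation p = 0.102, adjusted p = 0.102) and rho -0.517 (permutation p = 0.0874), and without 2 animals r was 0.0103 (permutation p = 0.979). p-values were adjusted over these 4 relations.

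**Figure D2:**
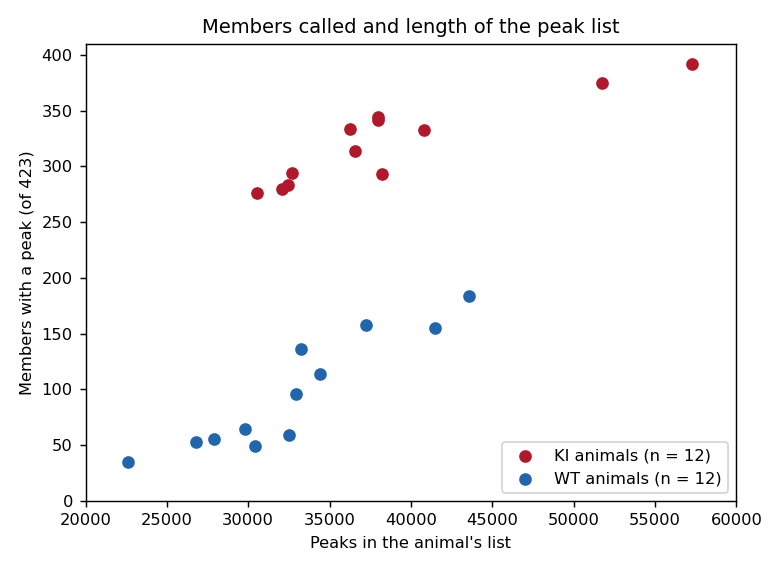
Number of the 423 members with a peak in each animal (vertical axis) against the number of peaks in its list (horizontal axis), for 12 KI and 12 WT animals. Longer lists hold more members in both genotypes, between 276 and 392 in KI and between 35 and 184 in WT.

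Where members were called, the median −log10 q of their peaks was below that of all peaks of the same list in each of the 24 animals. The median fold enrichment was also lower in members, except in naive WT replicate 3 and trained WT replicate 1 of 5 months, where it was higher, and in naive KI replicate 3 of 8 months, where the values were equal. The median fold enrichment of immunoprecipitated over input RNA in members was between 4.1 and 5.12 in KI lists and between 3.66 and 5.29 in WT lists, while that of all peaks was between 4.39 and 5.21 in KI lists and between 4.56 and 5.11 in WT lists. The median −log10 q in members was between 4.59 and 9.86 in KI lists and between 5.43 and 12.2 in WT lists, against 5.31 to 15.6 over all peaks in KI and 6.78 to 15.6 in WT. All peaks include those of the 12187 regions called in all 24 animals, whose strongest peaks had a median −log10 q of 44.8. The strongest peaks of members had a median −log10 q of 14.9 and a median fold enrichment of 6.95. For the regions called in 6 to 18 animals these were 13.3 and 6.55, so members were not weaker than that set. Members had a median length of 429 bp, close to the 425 bp of the regions called in 6 to 18 animals and well under the 1074 bp of the regions called in all 24 animals.

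Htt, the gene that carries the mutation, held the member with the greatest difference. A region of 618 bp in its first intron, chr5:35104810-35105427, begins 52 bp after the end of exon 1 and was called in all 12 KI animals and in no WT animal. Its fold enrichment was 7.22, 4.37 and 5.5 in trained KI mice of 8 months and 11.2, 5.13 and 10.4 in trained KI mice of 5 months. In naive KI mice it was 7.36, 7.83 and 2.83 at 8 months and 7.63, 8.85 and 9.79 at 5 months. Every KI animal thus stood apart from every WT animal, and the weakest peak, with a −log10 q of 8.77, came from the longest list. A second member, chr5:35103768-35104456, reaches from upstream of Htt into its first exon, with the summit 283 bp before the annotated start at chr5:35104389. It was called in all 3 trained KI animals at each age, in 2 naive KI animals of 8 months and in 1 of 5 months, and in no WT animal. Fold enrichment there was between 3.18 and 9.28, with a median of 5.92 over 9 KI animals.

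Both members lie at the edges of the exon that was engineered in the KI allele, and the reads had been aligned to a genome with the unmodified exon. The part of that difference in sequence in the calls was not tested. Htt and its start have 8 common regions in all. Another intron region, chr5:35110136-35110454, was called in 4 KI animals and no WT animal. Deeper in the introns, chr5:35125641-35126015 had peaks in 8 KI and 7 WT animals. In the 3′UTR, chr5:35251152-35252004 had peaks in 10 KI and 9 WT animals. The last 3′UTR region, chr5:35254723-35255143, had peaks in 9 KI and 4 WT animals, an excess of 5.

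Members were somewhat more frequent around Htt on chromosome 5, again as a description. With the regions of Htt itself left out, 6 of the 128 regions within 5 Mb of Htt that were called in 6 to 18 animals were members (4.69%), against 31 of 1205 (2.57%) on the rest of chromosome 5 and 384 of 17336 (2.22%) on all other chromosomes. None of the 128 was called mostly in WT. The 5 Mb limit was chosen after the positions were seen; within 1 Mb the share was 2 of 39, within 10 Mb 7 of 176 and within 20 Mb 9 of 322. The 6 lay in the 5′UTR of Ywhah, a 14-3-3 protein (12 KI and 5 WT animals), the coding sequence of 4933407H18Rik (10 KI and 3 WT), an intron of Whsc2, a subunit of the negative elongation factor (10 KI and 4 WT), an intron of Add1, the membrane skeleton protein adducin (11 KI and 5 WT), the 5′UTR of Ppp2r2c, a regulatory subunit of protein phosphatase 2A (10 KI and 4 WT), and an intron of the urate transporter gene Slc2a9 (10 KI and 3 WT). Chromosome 5 as a whole held 39 members among 1338 such regions (2.91%), and chromosome 12 held 21 among 713 (2.95%).

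Rragd codes for a Rag GTPase that brings mTORC1 to the lysosome when amino acids are plentiful, and it holds 2 members. Its 5′UTR region, chr4:33070042-33070569, was called in 11 KI animals and in 1 WT animal. Fold enrichment was 8.27, 1.76 and 8.02 in trained KI mice of 8 months and 2.46, 19.6 and 2.62 in trained KI mice of 5 months. It was 1.82 and 2.08 in 2 naive KI mice of 8 months and 2.59, 7.04 and 3.06 in naive KI mice of 5 months, while the single WT peak, in a trained mouse of 8 months, had 2.3. The values spread widely within KI and the WT peak lay inside their range. The second region, chr4:33082602-33083038 in the coding sequence, was called in 10 KI and 3 WT animals.

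Wdr33, a subunit of the complex that recognises the polyadenylation signal, had a 5′UTR region called in 11 KI animals and 1 WT animal, with a fold enrichment between 2.3 and 6.73 in KI and 3.19 in WT. A pair of introns was called in all 12 KI animals and in 3 WT animals. One was in Hmgxb4, which codes for a protein with an HMG box, at chr8:77543885-77544221, with a fold enrichment between 4.17 and 9.11 in KI and between 5.78 and 6.61 in WT. The other was in Pcsk2, the prohormone convertase of dense-core vesicles, at chr2:143549447-143549941, with 2.15 to 5.11 in KI and 2.91 to 6.72 in WT. In Hmgxb4 the peaks of the 3 WT animals lay within the range of KI, and in Pcsk2 the highest WT peak was above it. An intron of Zfpm2, a cofactor of GATA factors, was called in 11 KI and 2 WT animals. An intron of Nrcam, an adhesion protein of nodes of Ranvier and axons, was called in 10 KI animals and 1 WT animal. A region outside annotated genes, chr7:6604617-6605214, 23069 bp from its nearest coding gene Zim1, was called in 9 KI animals and in no WT animal, with a fold enrichment between 3.84 and 6.48.

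The other 16 of the first 25 members each had an excess of 8. Called in all 12 KI animals and in 4 WT animals were the 5′UTR of Prdm8, a transcriptional repressor of the PR-domain family, and an intron of Tpd52. Called in 11 KI and 3 WT animals were the 5′UTR of Arf3, a small GTPase of the Golgi, and introns of Clvs1, of Kcng1, a modulatory potassium channel subunit, of Crtac1, which codes for a secreted matrix protein, and of Ncan, which codes for the proteoglycan neurocan of perineuronal matrix. Called in 10 KI and 2 WT animals were the 5′UTR of Klk8, a serine protease also known as neuropsin that acts in hippocampal plasticity (a region shared with another gene), introns of 1300010F03Rik and of the transcriptional regulator gene Kctd1, and 2 regions outside genes, nearest to Dpp10 and Gm5938. Called in 9 KI animals and 1 WT animal were an intron of the homeobox gene Cux2, an intron of the dynein light chain gene Dnalc1, and the 3′UTRs of Ankrd43 and of Rab3d, a GTPase of secretory vesicles. The single WT peak in Cux2 had a fold enrichment of 14.7, above the 3.41 to 6.87 of the 9 KI peaks.

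**Figure D3:**
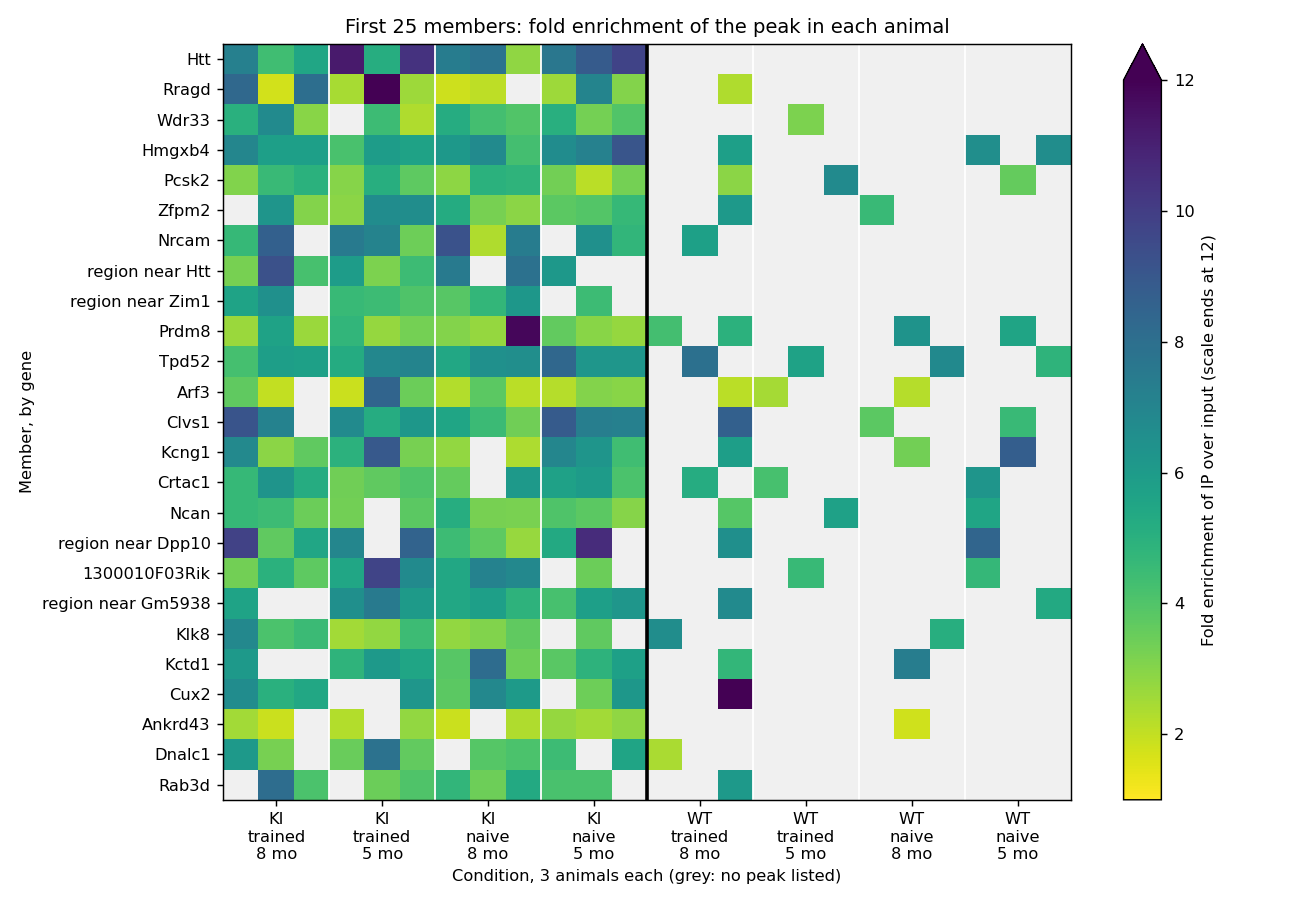
Fold enrichment of the strongest peak in each of the first 25 members (rows, named by gene or by the nearest gene) in each of 24 animals (columns, 3 per condition, KI at the left of the black line). Grey cells are animals with no peak listed, and Htt is the row with 12 KI peaks and no WT peak.

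In the transcript, members stood out by their share in 5′UTRs. The summit of the strongest peak lay in a 5′UTR in 52 members, 12.3% (95% Wilson interval 9.50 to 15.8, counting error only), against 5.8% of the regions called in 6 to 18 animals and 3.61% of those called in all 24. Put the other way, 4.80% of the 5′UTR regions called in 6 to 18 animals were members, against the 2.27% over all classes. Regions with an excess of 5 were between, at 8.46%. Among the 35 members that were kept with equal lists, 6 were in 5′UTRs (17.1%). Of the members kept under all 4 settings, 0 were in a 5′UTR. Coding sequence held 85 members (20.1%, against 21.7% of regions called in 6 to 18 animals), 3′UTRs 46 (10.9%, against 9.83%), introns 152 (35.9%, against 38.3%), noncoding exons 8 and other gene types 7. The remaining 73 (17.3%, against 20.2%) were outside annotated genes. Regions called in all 24 animals had another make-up, with 44.5% in coding sequence, 25.8% in 3′UTRs and 11.9% in introns. Near an annotated transcript start, within 500 bp, lay 98 members (23.2%), against 13.9% of the regions called in 6 to 18 animals, while 49 members (11.6%) lay within 250 bp of a stop codon, against 10% of that set and 31.7% of regions called in all animals. The lists carry no strand, and 25 members had more than 1 gene under the summit.

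**Figure D4:**
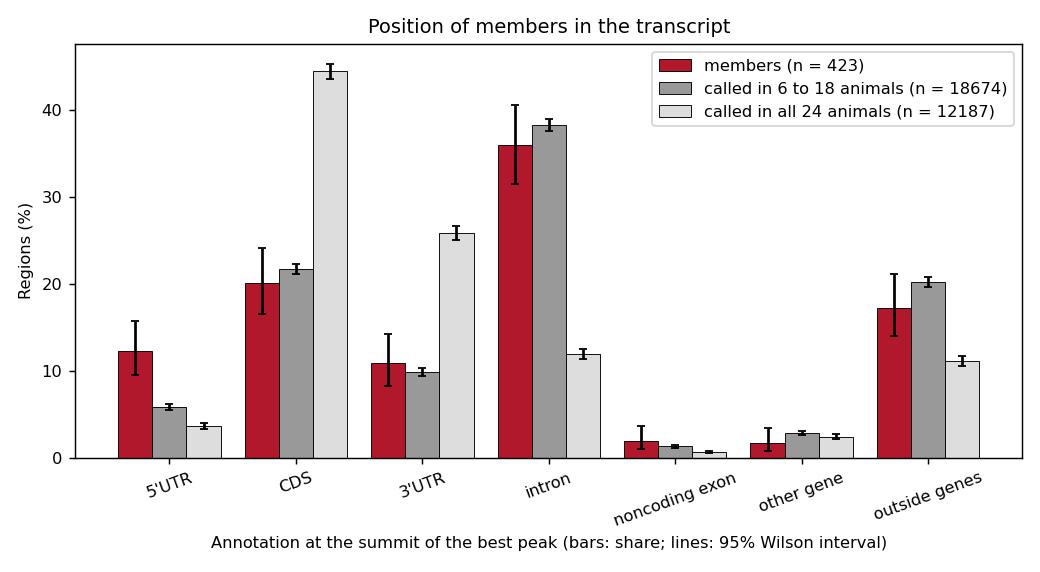
Share of regions (vertical axis, percent) by annotation at the summit of the strongest peak, for the 423 members, for the 18674 regions called in 6 to 18 animals and for the 12187 called in all 24, with 95% Wilson intervals. The 5′UTR bar of the members, 12.3%, is above the 5.8% and 3.61% of the other sets.

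The share of 5′UTRs over a whole list overlapped between the genotypes, being 4.99% to 6.95% of the regions called in KI animals and 2.53% to 6.53% in WT animals. The 52 members in 5′UTRs were called in 31 to 51 of 52 in KI animals and in 3 to 33 in WT animals. Their windows were rich in G and C, with a median GC content of 71%, against 66% for 5′UTR regions called in 6 to 18 animals. Genes of membrane traffic were among them. Rab5a, the GTPase of early endosomes, was called in 8 KI animals and no WT animal, and Picalm, a clathrin adaptor, in 6 KI animals and no WT animal. Dnm2, which codes for dynamin 2, was called in 7 KI animals and 1 WT animal, Cltb, a clathrin light chain, in 8 KI and 2 WT animals, and Chmp4b, an ESCRT-III subunit, in 12 KI and 6 WT animals. Regulators of transcription and signalling were there as well, with Foxo3 in 10 KI and 4 WT animals, Neurod6, a neuronal bHLH factor, in 8 KI and 2 WT animals, and Notch1 in 7 KI animals and 1 WT animal. Mylip, a ubiquitin ligase for lipoprotein receptors, was called in 12 KI and 5 WT animals. These genes were picked from the 52 after their calls were seen, and no theme was tested.

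The GGAC core of the m6A consensus was searched on the strand of the gene in 100-base windows on the summits, in regions with 1 gene under the summit. It was found in 129 of 325 members (39.7%, 95% Wilson interval 34.5 to 45.1), in 34.7% of the regions called in 6 to 18 animals, in 36.9% of all common regions and in 48.7% of those called in all 24 animals. At 100 bases the interval of the members holds the shares of all common regions and of regions called in 6 to 18 animals. It leaves out that of regions called in all animals. With windows of 50 bases the interval (17.7 to 26.65) does the same. The interval covers counting error only, and the members are part of the first sets named. With windows of 200 bases it leaves out the shares of all 3 other sets, the motif being found in 64.3% of members (59.0 to 69.3), 55.5% of regions called in 6 to 18 animals, 57.5% of all common regions and 70.7% of those called in all 24 animals. In introns, 36.8% of the members had the motif (53 of 144, interval 29.4 to 44.9), against 28.9% of regions called in 6 to 18 animals. In 5′UTRs 32% of the members had it (16 of 50, interval 20.8 to 45.8), against 42% of that set, which the interval holds.

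The 343 members in protein-coding genes fell in 339 genes, 4.84% of the 7005 genes with a region called in 6 to 18 animals. No gene had 3 or more members. Besides Rragd, 3 genes had 2 each. Dscaml1, an adhesion protein of the DSCAM family, had peaks of 12 KI and 5 WT animals in an intron, and of 9 KI and 3 WT animals in coding sequence. Kcnh5, a potassium channel of the EAG family, had peaks of 10 KI and 4 WT animals in coding sequence, and of 6 KI animals and no WT animal in an intron. Zfp462, a zinc finger protein of chromatin, had peaks of 11 KI and 5 WT animals in one intron region and of 7 KI animals and 1 WT animal in another.

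Genes of synapse, signalling and RNA biology were counted in 13 lists with 362 genes, 360 of them in the annotation. These genes held 1107 regions called in 6 to 18 animals, and 14 of these were members (1.26%), a share below the 2.27% over all such regions. No member fell in any of the 24 glutamate receptor genes listed, which had 122 regions called in 6 to 18 animals. The same held for the 20 genes of GABA synapses (57 regions) and the 30 voltage-gated channel genes listed (105 regions). That channel list does not hold the potassium channel genes Kcng1 and Kcnh5, which have members. No member fell in the 30 immediate-early genes (24 regions) or the 28 genes of oxidative phosphorylation (6 regions) either. The immediate-early and oxidative phosphorylation lists had few such regions. At the share of 2.27% over all, the lists without a member would each hold few, so their absence was only counted. Genes of synaptic adhesion had 5 members among 243 regions. They were introns of Ntng1, a netrin-G (11 KI and 4 WT animals), Nlgn1, a neuroligin of excitatory synapses (8 KI and 1 WT), Cadm2 (7 KI and no WT), Csmd1 (9 KI and 3 WT) and Ptprf, the receptor phosphatase LAR (8 KI and 2 WT), the last named after its values were seen. Among genes of postsynaptic scaffolds and signalling there were 2 of 144, an intron of Kalrn, a guanine exchange factor of dendritic spines that binds the huntingtin partner HAP1 (9 KI and 2 WT), and an intron of Shank1 (10 KI and 4 WT). Presynaptic genes had 1 of 87, an intron of the vesicle priming gene Unc13b, called in 8 KI animals and no WT animal.

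Outside the synapse, the 24 genes of the m6A machinery had 1 member among 17 regions, the 5′UTR of the reader gene Ythdf3, called in all 12 KI animals and in 6 WT animals. No writer or eraser gene had a member. Splicing factors had 1 of 69, an intron of Mbnl2 shared with another gene (11 KI and 5 WT). Genes of cAMP, calcium and neurotrophin signalling had 2 of 121, introns of the phosphodiesterase gene Pde10a (8 KI and 2 WT) and of the calcium-dependent kinase gene Camk4 (7 KI and 1 WT). Huntingtin and its partners had 2 of 35, the intron of Htt and that of Kalrn.

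Peaks were also counted in 11 lists of cell and tissue markers. Peaks were listed in 7 of the 8 CA1 markers in every KI animal and in 6 to 7 in WT animals, and in 8 to 9 of 10 dentate gyrus markers in KI animals and 7 to 9 in WT animals. Choroid plexus, a neighbouring tissue, had peaks in 3 to 8 of its 10 markers in KI animals and in 2 to 6 in WT animals. These lay in 6 to 18 regions in KI and 6 to 14 in WT, and its defining transcript Ttr had none in any animal. The CA1 marker Dcn and the dentate gyrus marker Calb1 had none either. Striatum markers had peaks in 9 to 11 of 12 genes in both genotypes, so that such calls could not tell these tissues apart. No choroid plexus, CA3, dentate gyrus, astrocyte, oligodendrocyte, microglia or endothelium marker held a member, but these lists had few regions called in 6 to 18 animals, between 2 for microglia and 17 for dentate gyrus and for oligodendrocytes, against a share of members of 2.27% over all such regions. Markers of oligodendrocyte precursors held 2 of 15 regions, in the coding sequence of Sox10 (12 KI and 5 WT) and an intron of Bcan (7 KI and 1 WT), with peaks in 20 to 37 regions of that list in KI animals and in 14 to 28 in WT animals, and 7 of 7 of its genes in every animal. CA1, interneuron and striatum markers held 1 member each, in introns of Gpr161, Adarb2 and Pde10a. Whether a different share of cell types bears on any of these calls was not tested, and a change in cell number cannot be told apart from one in RNA per cell in tissue samples.

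The spread of members over the KI conditions is given as a description, since an excess of 6 or more KI animals largely fixes it. A peak was present in at least 1 animal of every KI condition in 370 members and in at least 2 of 3 animals of every KI condition in 200. At least 2 of 3 animals had a peak in 303 members in trained KI mice of 8 months, in 347 in trained KI mice of 5 months, in 402 among naive KI mice of 8 months, and in 345 among those of 5 months. The numbers in WT were 122 in trained mice of 8 months, 14 in trained mice of 5 months, 92 in naive mice of 8 months and 43 in naive mice of 5 months. More KI than WT animals had a peak in each of the 4 pairings of training and age in 212 members. 45 members had a peak in at least 2 of 3 animals of every KI condition and of no WT condition.

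Training was compared within each genotype, a contrast whose labels the rule had not used. The counts come from the same calls that chose the members, so a longer list weighs in both. Trained KI mice had a peak in 298.3 ± 26.2 members and naive KI mice in 345 ± 34.6 (SD, n = 6 each), a difference of -46.67 members, with an exact permutation p of 0.04 within ages and an adjusted p of 0.08. The same KI lists also held fewer calls, with 31034 ± 2100 common regions in trained and 37727 ± 7708 in naive mice (exact permutation p = 0.06, adjusted p = 0.12, n = 6 each). As a share of the regions called in the animal, members made up 0.961% ± 0.0352 in trained and 0.930% ± 0.0929 in naive KI mice, a difference of the opposite sign (exact permutation p = 0.47, adjusted p = 0.627). Trained WT mice had a peak in 96.8 ± 61.4 members and naive WT mice in 96.2 ± 44.7 (exact permutation p = 0.985, adjusted p = 0.985). Neither difference passed the adjusted threshold. Without 1 animal the adjusted p in KI was between 0.04 and 0.15 (exact permutation test). It passed only without trained KI replicate 3 of 5 months (-55.8, adjusted p = 0.04, exact permutation test). The same 4 comparisons of training and age form the family over which p was adjusted, and the smallest p that the 400 arrangements allow is 0.005.

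Age was compared in the same way. KI mice of 8 months had a peak in 326.8 ± 49.9 members and KI mice of 5 months in 316.5 ± 25.2 (n = 6 each, exact permutation p = 0.58, adjusted p = 0.773). WT mice of 8 months had a peak in 132.2 ± 44.4 members and WT mice of 5 months in 60.8 ± 27.3 (n = 6 each, exact permutation p = 0.02, adjusted p = 0.08). The difference in WT, 71.33 members, missed the adjusted threshold. With 1 animal left out, it passed only without naive WT replicate 1 of 5 months (81.97) or of 8 months (84.97). The adjusted p was then 0.04 (exact permutation test). Without any other single WT animal the adjusted p was 0.08 (exact permutation test). The WT lists of 8 months also held more regions, 32275 ± 3876 against 26260 ± 4017 at 5 months (exact permutation p = 0.045, adjusted p = 0.12). As a share of the regions called in the animal, members made up 0.400% ± 0.0966 in WT mice of 8 months and 0.225% ± 0.0673 at 5 months. This was a difference of the same sign (exact permutation p = 0.015, adjusted p = 0.06). With equal lists the members as then defined differed by 10.5 in WT with an adjusted p of 0.04 (exact permutation test).

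**Figure D5:**
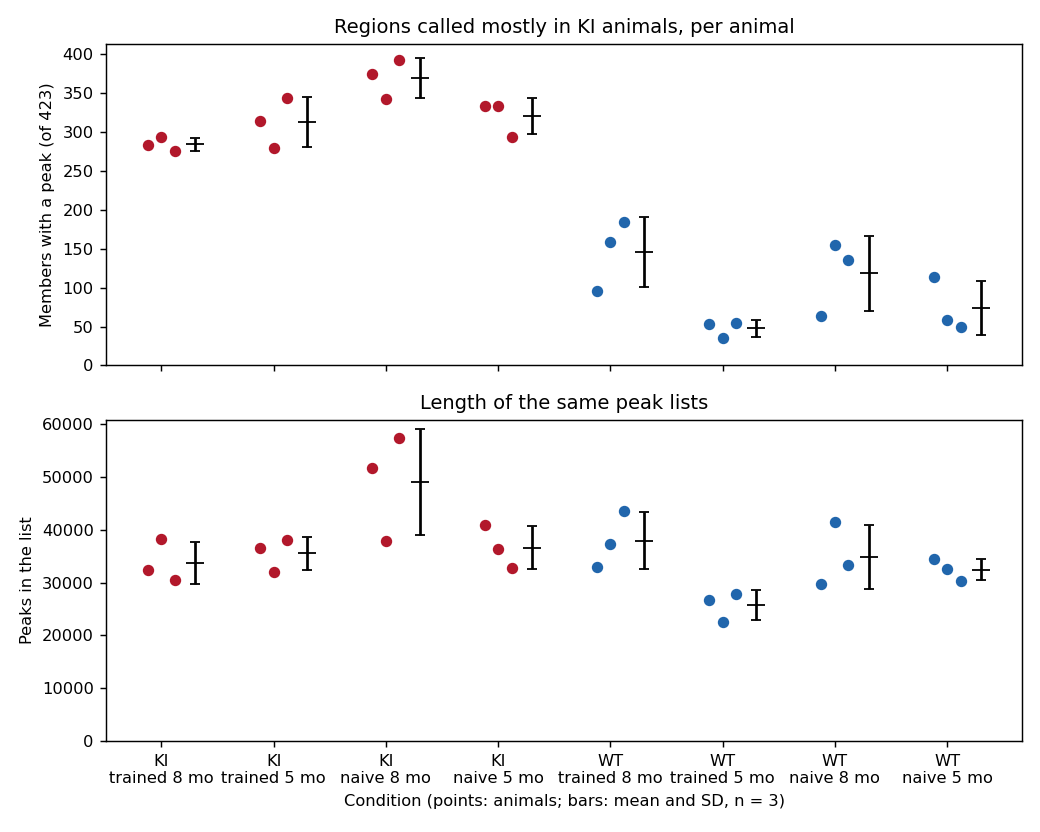
Members with a peak in each animal (upper panel) and peaks in the same lists (lower panel), by condition, with KI at the left (points are animals, bars the mean and SD, n = 3). Naive KI mice of 8 months have the highest means of both, with 342 to 392 members in each animal.

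No single region passed the test for training or for age. By Fisher's exact test on 12 trained against 12 naive animals, with Benjamini-Hochberg adjustment over the 35110 regions called in 3 to 21 animals, 0% of the regions tested were called, and 1 of the 423 members, with 504 regions in all (1.44%), had an unadjusted p under 0.05. That member, an intron of the tubulin ligase gene Ttll11, had peaks in no trained animal and in 6 naive animals, all KI (Fisher's exact p = 0.0137, adjusted p = 1). For 8 against 5 months no region was called either, the lowest adjusted p being 0.169 over all regions and 0.312 among members, and 24 members had an unadjusted p under 0.05 (5.67%), against 3440 regions in all (9.8%). Of the 24, 21 had more animals of 8 months, as did 3111 of the 3440 regions. The lowest p belonged to the coding sequence of Safb2, a nuclear scaffold protein, called in 12 animals of 8 months and 6 of 5 months (Fisher's exact p = 0.0137, adjusted p = 0.312).

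Among the KI animals alone, the widest spreads are given as a description. Trained exceeded naive KI animals by 3 in the region upstream of Htt and in members of Lgmn, the lysosomal protease legumain, Vgll4, Ncoa5, Camk4 and a region nearest to Slitrk5, 6 members in all. Naive exceeded trained KI animals by 6 in Ttll11, by 5 in Scamp1, a carrier membrane protein, and in a region nearest to Tspan2, and by 4 in 8 members, among them Zmym5 and Bptf, a subunit of the NURF remodeller. KI animals of 8 months exceeded those of 5 months by 5 in an intron of Smad1, a transducer of BMP signals, and in the 3′UTR of Gpr107, and by 4 in 4 members, among them the repair gene Xpc, Wdr81 and Ankle2. KI animals of 5 months exceeded those of 8 months by 5 in a region nearest to Mettl4, by 4 in Csmd3, in the synaptic adhesion gene Lrfn5 and in a region nearest to 2010111I01Rik, and by 3 in 20 members, among them a region nearest to Gm17350. In all, 78 members had more trained than naive KI animals and 219 fewer (51.8%, against 58.2% of the regions called in 6 to 18 animals). 175 members had more KI animals of 8 than of 5 months (41.4%, against 46.8% of the regions called in 6 to 18 animals) and 136 fewer (32.2%, against 34.8%).

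Whether a lean to KI in some animals recurred in others was tested by choosing regions in 12 animals and reading them in the other 12. Regions with at least 3 more KI than WT animals among the 12 animals of one age, or of one training state, were chosen, and the percentage of them with a peak was taken in each of the other 12 animals. The 2098 regions chosen at 8 months had a peak in 30.2% ± 6.01 of cases in KI mice of 5 months and in 18.6% ± 7.53 in WT mice of 5 months (SD, n = 6 each, exact permutation p = 0.01, adjusted p = 0.04). Of all common regions, however, the same KI animals had a peak in 39.8% ± 3.34 and the same WT animals in 32.1% ± 4.91 (exact permutation p = 0.01, adjusted p = 0.04, n = 6 each). With the chosen regions taken as a share of the regions called in each animal, the adjusted p was 0.1. Without 1 animal of 5 months the difference was between 9.81 and 14.2 percentage points, and its adjusted p stayed at 0.04 only without naive KI replicate 3 or naive WT replicate 1, and was 0.08 or 0.1 without any of the other 10 (exact permutation test).

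The other 3 readings did not pass the threshold. The 4033 regions chosen at 5 months had a peak in 59.3% ± 12.5 of cases in KI and 54.7% ± 9.83 in WT mice of 8 months (n = 6 each, exact permutation p = 0.5, adjusted p = 0.5). The 3704 regions chosen in naive animals had one in 39.6% ± 7.29 in trained KI and 33.9% ± 17.8 in trained WT mice (n = 6 each, exact permutation p = 0.445, adjusted p = 0.5). The 1824 regions chosen in trained animals had one in 60.03% ± 12.1 among naive KI mice, and in 46.9% ± 10.35 among naive WT mice (n = 6 each, exact permutation p = 0.06, adjusted p = 0.12). Without naive WT replicate 1 of 5 months this last difference was 15.61 percentage points with an adjusted p of 0.04 (exact permutation test). Without any other single naive animal its adjusted p was between 0.07 and 0.27 (exact permutation test). With 22601 peaks from each list, the 4 differences between KI and WT were 1.41 percentage points for regions chosen at 8 months, -2.52 at 5 months, 4.57 in naive and -0.32 in trained animals, with adjusted p between 0.84 and 0.93. The intron of Htt was called in all 6 KI animals of either age and of either training state.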

How the data were processed

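Per the labels and the study's methods, hippocampal RNA of 24 mice was sequenced before and after m6A immunoprecipitation, aligned with STAR 2.7.3a to mm9, and peaks were called per animal with MACS2 2.2.6, each immunoprecipitate against its own input. The deposited narrowPeak lists give, for each peak, a score, a fold enrichment (a ratio of immunoprecipitate over input), −log10 p and −log10 q, the lowest −log10 q being 1.3. No read counts or strand were in the lists, so the depth behind a call is unknown, and list length was used in its place. 10 deposited tables of DiffBind 2.8.0 hold the authors' own comparisons (levels, fold changes and p-values) and were not used.

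Lists were joined and tested in Python 3.11.15 with numpy 2.4.6, pandas 2.3.3 and scipy 1.17.1, and drawn with matplotlib 3.10.9. Regions were placed at the summit of their strongest peak with GENCODE M1, on the build of the files. Permutation tests between groups were exact and two-sided, with labels permuted within the other factor (age or training), correlations were tested with 100000 permutations, Fisher's tests were two-sided, and p-values were adjusted by Benjamini-Hochberg. Animals of a condition were separate mice. Alternatives were a −log10 q of at least 3, the 22601 best peaks per list, windows of 100 bp on each side of the summits, coverage of 50% of a region, other differences than 6, shares of the regions called, and leaving out each animal. Leaving out lists with short peaks was added after seeing the data. The steps were tested on simulated data. The input libraries' own values were not used here. The members, the gene lists and the tests were chosen with earlier results of these data known. Genes were named by rule: the 25 members with the largest excess of KI animals, genes with 3 or more members, up to 4 members per list, and the 5 members with the widest spread over training and over age in each direction. Other names were chosen after their values were seen, as the text says. The result of 1 gene list is not reported here.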

Additional observations from a re-analysis of the deposited data

Results flagged for a closer look

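Each of the 24 groups, of 6 animals each, behind the comparisons of training, age and chosen regions was checked for an animal that stood apart from the rest, a check that flags about 1 group in 20 by chance. Both results that it marked concern the same naive WT mouse of 5 months, replicate 1. It had a peak in 114 members, while the other 5 WT mice of 5 months had 35 to 59, and the gap took 0.696 of the range. Members made up 0.356% of the regions called in it, with a gap of 0.72 of the range. Its list was the longest among the WT mice of 5 months, with 34390 peaks. Without it, the difference between WT mice of 8 and of 5 months was 81.97 members with an adjusted p of 0.04 (exact permutation test), against 71.33 members and 0.08 with it.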

How the results depend on the processing

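The count of 423 members was 89 with lists of equal length, 133 when a peak had to cover at least 50% of its region, and 1404, 121 and 29 with an excess of 5, 7 or 8 animals or more. Without the 5 lists whose shortest peak was under 100 bp it was 82, a setting chosen after seeing the data. The rule was unchanged there while fewer animals were counted. Leaving out 1 animal with the rule unchanged gave 143 to 900, all values without a KI animal being under 423 and those without a WT animal 523 to 900, since fewer KI or WT animals were counted.

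For members called per animal, the small difference between trained and naive WT mice changed sign with a −log10 q of at least 3 (-9.67) and with 50% coverage (-5.5), and was between -16.77 and 13.03 without 1 animal. That between KI mice of 8 and 5 months changed sign with 50% coverage (-6.33) and as a share of the regions called (-0.0562 percentage points), and was between -2.7 and 20.5 without 1 animal. That between trained and naive KI mice changed sign as a share (0.0308 percentage points), and was between -56.87 and -37.27 without 1 animal. That between WT mice of 8 and 5 months passed the threshold with equal lists (10.5) and summit windows (82.83), each with an adjusted p of 0.04 by the exact permutation test, and was between 60.97 and 84.97 without 1 animal.

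For regions chosen at 8 months and read at 5 months, the difference was 13.1 percentage points with a −log10 q of at least 3, 1.41 with equal lists, 10.4 with summit windows, 7.295 with 50% coverage, 0.495 as a share of the regions called and 15.3 with an excess of 4 or more of 6. In each of these the adjusted p missed the threshold. Without 1 animal it was between 9.81 and 14.2. For regions chosen at 5 months it was -2.52 with equal lists, -2.82 with 50% coverage and -0.162 as a share, and between 0.827 and 6.97 without 1 animal. For regions chosen in trained animals it was -0.323 with equal lists and -3.55 with 50% coverage, and between 9.78 and 16.8 without 1 animal. For regions chosen in naive animals it was between 2.11 and 10.8 without 1 animal.

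No region was called for training under any setting run, and for age 0 to 9 regions were called when 1 animal was left out, namely 9 without naive WT replicate 1 or trained WT replicate 1 of 8 months, 7 without naive KI replicate 2 of 5 months and 1 without trained KI replicate 3 of 5 months. The share of members with a GGAC was 21.9% in windows of 50 bp (19.1% of regions called in 6 to 18 animals, 20.9% of all) and 64.3% in windows of 200 bp (55.5% and 57.5%), where the members' interval no longer holds the share of all regions. No paired analysis was possible because the labels give the animals no replicate numbers that pair them across groups. The cause of these shifts was not tested. Depth limits what the absence of a peak shows, since an animal with no peak listed may lack the mark, the transcript or the reads.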
